A study of Homo sapiens with 6 samples.

Results

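Transcript levels of 9 genes of the extrinsic cell death pathway were followed in HepG2, an established human liver carcinoma line, after 48 h with 10 µM oridonin, a diterpenoid of the plant Isodon rubescens, or with 0.1% DMSO. The genes encode the death receptors FAS, TNFRSF10A and TNFRSF10B, the decoy receptor TNFRSF10D, the adaptor FADD, the kinase RIPK1, the initiator caspase CASP8, its inhibitor CFLAR and the caspase inhibitor XIAP. They were chosen by symbol, each symbol stood once in the deposited annotation, and all 9 were among the 15116 genes tested out of 60504 in the count table. Each treatment had 3 libraries of total RNA from adherent cells grown in DMEM. How much DMSO the oridonin cultures held is not in the labels, and both groups come from 1 tumour line with no change of genotype. The labels do not say that the 3 samples of a treatment were separate cultures, so the p-values reflect only how much these samples varied, which can be technical variation.

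Death receptors are members of the tumour necrosis factor receptor family that carry a death domain in the cell. When FAS ligand binds FAS, or TRAIL binds TNFRSF10A or TNFRSF10B, the receptors gather the adaptor FADD, and FADD gathers caspase 8, which cuts itself free and activates the executioner caspases. CFLAR resembles caspase 8 but lacks its catalytic activity and joins the same complex, and XIAP blocks executioner caspases further down, which in hepatocytes is a known brake on killing through FAS.

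All 9 genes rose with oridonin by edgeR's quasi-likelihood test, at a Benjamini-Hochberg adjusted p under 0.05 over all genes tested. The background to this count is that 20.6% of all tested genes were called higher and 21.3% lower. The 9 genes were chosen with earlier results of these data known, so these counts describe the list and do not test the pathway. Log2 fold changes (oridonin over DMSO) ran from 0.14 to 0.64 with a median of 0.55, against a median of 0.01 over all tested genes. In each of the 9 the lowest oridonin library was above the highest DMSO library, which held for 26.0% of tested genes. Sizes fell into 2 ranges: FAS, CFLAR, TNFRSF10D, TNFRSF10A and CASP8 changed by 0.55 to 0.64, and FADD, RIPK1, XIAP and TNFRSF10B by 0.14 to 0.34. The changes were moderate on the scale of this experiment, since 1077 tested genes (7.13%) had a larger log2 fold change than any of the 9.

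**Figure D1:**
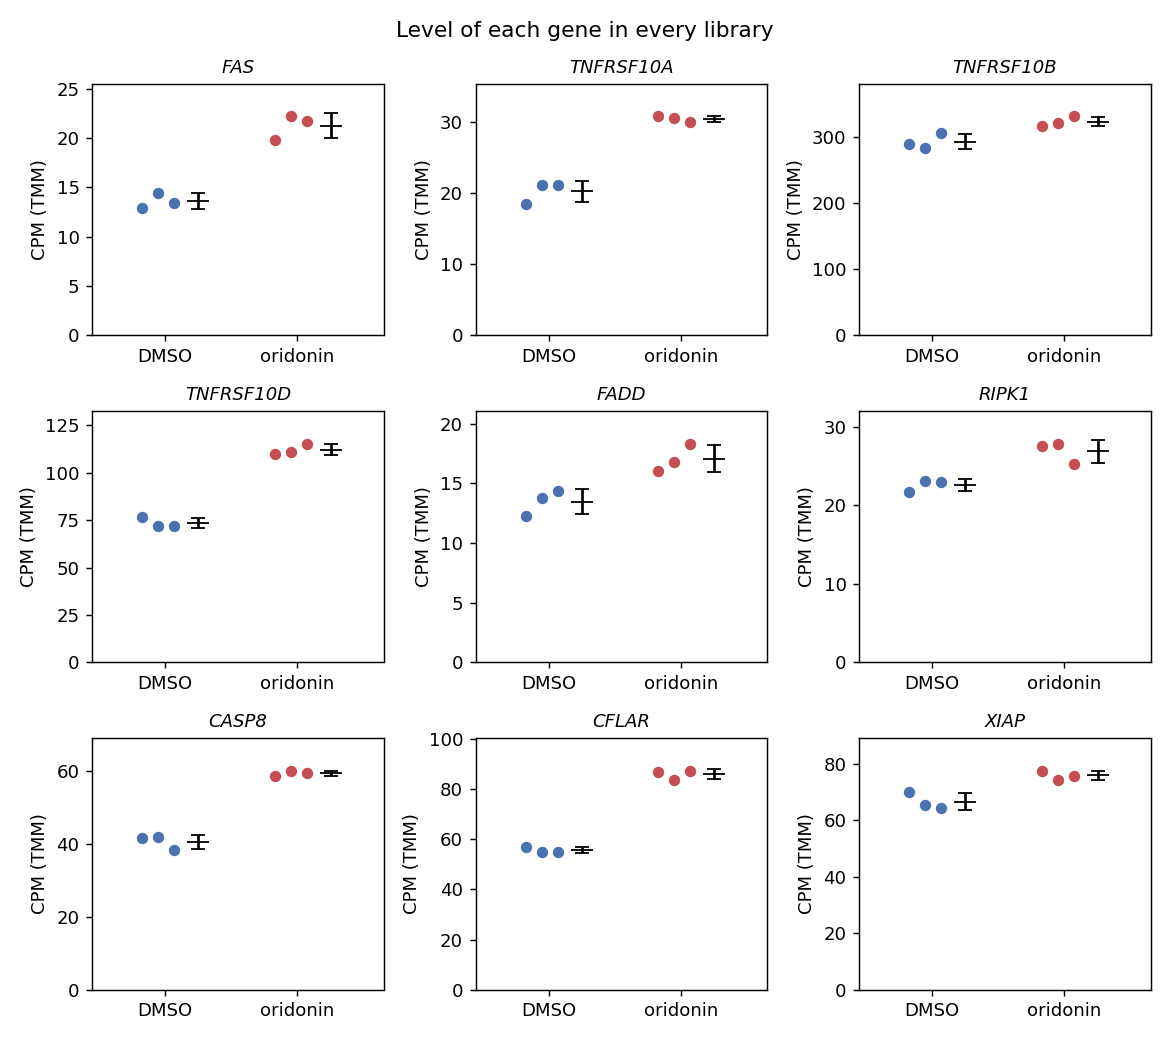
Each panel shows 1 gene. Points are libraries, the y axis is CPM, in which counts are divided by a TMM-adjusted library size (trimmed mean of M values), and black bars are the mean ± SD of 3 libraries. In every panel the 3 oridonin libraries lie above the 3 DMSO libraries.

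Total counts per library lay between 22250202 and 30739574, and the members had between 270 counts (FADD in DMSO replicate 1) and 10078 counts (TNFRSF10B in oridonin replicate 1). With total-count scaling in place of TMM, 65.5% of calls over all genes were upward against 49.2%, and all 9 genes stayed called, at 0.22 to 0.72. The hepatocyte markers ALB, AFP, APOA1, APOB, TF, SERPINA1, TTR and HNF4A were all detected, with a summed level of 24054 to 27970 CPM of total counts in DMSO and 15105 to 17556 in oridonin. HNF4A (263, 246 and 256 CPM in DMSO, 265, 250 and 269 in oridonin) and TTR overlapped between the groups. The other markers of this set were lower in each oridonin library than in any DMSO library. Of 9 leukocyte markers, MS4A1 was at 0 in every library, and PTPRC, which marks all leukocytes, had 0 counts in each DMSO library and 1 to 3 in the oridonin libraries. The summed level of the 9 was 673 to 696 CPM in DMSO and 434 to 472 in oridonin, nearly all of it from LYZ. A set of 5 immunoglobulin and J chain genes was uneven, at 0.0449, 7.12 and 11.9 CPM in the DMSO libraries and 17.0, 59.8 and 57.4 in the oridonin libraries. Its part in the changes described here was not tested. Of 6 stromal and endothelial markers, all 6 had counts and DCN had at most 6 in a library, and their sum was 64.4 to 70.3 CPM in DMSO and 42.7 to 46.0 in oridonin, most of it from PDGFRB, which was lower in each oridonin library, while PECAM1 and COL1A1 were higher in each oridonin library than in any DMSO library. Their part in the changes was not tested either. In bulk RNA, more cells expressing a gene and more RNA per cell cannot be told apart.

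FAS (ENSG00000026103, hg38 chr10:88990531-89015785, plus strand) encodes the receptor of FAS ligand. Its level was 12.9, 14.5 and 13.4 CPM in DMSO replicates 1 to 3 and 19.8, 22.2 and 21.8 CPM in oridonin replicates 1 to 3. The groups were separated by more than the spread within either, and the fold change of 1.56 was the highest of the 9 genes. Its log2 fold change was 0.64 ± 0.08 (SE over 3 and 3 libraries, edgeR adjusted p = 5.02e-06), larger than that of 92.9% of tested genes. FAS shares 380 bases of exon with ACTA2, which lies on the opposite strand and had 192 to 341 counts per library against 283 to 684 for FAS. Since no source used here gives the strand setting of the counting, reads from the shared stretch could have come from either gene.

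TNFRSF10A (ENSG00000104689, hg38 chr8:23190452-23225126, minus strand), also known as death receptor 4, is a TRAIL receptor with a death domain. It stood at 18.5, 21.1 and 21.1 CPM in DMSO and at 30.8, 30.6 and 30.03 CPM in oridonin. The oridonin libraries were close together, while DMSO replicate 1 was lower than the other DMSO libraries. This was a log2 fold change of 0.59 ± 0.07 (SE over 3 and 3 libraries, edgeR adjusted p = 3.27e-06). TNFRSF10A shares 266 bases of exon with AC100861.1 and 224 with TNFRSF10A-AS1, both on the opposite strand. Their counts were at most 11.8% and 3.44% of the TNFRSF10A counts in a library. As for FAS, reads from shared stretches could have come from either gene.

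TNFRSF10B (ENSG00000120889, hg38 chr8:23020133-23069179, minus strand), death receptor 5, is the other TRAIL receptor with a death domain and had the highest level of the 9 genes. It stood at 289, 283 and 305 CPM in DMSO and at 316, 321 and 330 CPM in oridonin. The groups did not overlap, but the gap between the highest DMSO library and the lowest oridonin library was smaller than the spread among the DMSO libraries. With a log2 fold change of 0.14 ± 0.05 (SE over 3 and 3 libraries, edgeR adjusted p = 0.0218), it showed the smallest change of the 9. The call was lost without DMSO replicate 1 (log2 fold change 0.13, adjusted p = 0.0831), without DMSO replicate 2 (0.12, adjusted p = 0.129) and without oridonin replicate 3 (0.13, adjusted p = 0.0771), so the call of TNFRSF10B, though not its direction, rests on each of these libraries. TNFRSF10B shares 67 bases of exon with RHOBTB2 on the opposite strand, whose counts were at most 6.61% of the TNFRSF10B counts in a library.

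TNFRSF10D (ENSG00000173530, hg38 chr8:23135588-23164030, minus strand) binds TRAIL but has a truncated death domain and acts as a decoy. Its level was 76.7, 71.7 and 71.8 CPM in DMSO and 110, 111 and 115 CPM in oridonin. The 2 groups lay far apart relative to their spread, at 73.4 ± 2.87 and 112 ± 2.92 CPM (SD, n = 3). TNFRSF10D thus changed by a log2 fold change of 0.61 ± 0.05 (SE over 3 and 3 libraries, edgeR adjusted p = 6.88e-08), a 1.53-fold rise.

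The TRAIL receptor genes lie side by side on chromosome 8, in the order TNFRSF10B, TNFRSF10C, TNFRSF10D, TNFRSF10A. TNFRSF10C, a decoy without an intracellular death domain that is not among the 9, averaged 4.68 ± 0.170 CPM for DMSO and 5.16 ± 0.499 for oridonin (SD, n = 3), and did not pass the test (log2 fold change 0.14 ± 0.12, SE, edgeR adjusted p = 0.371). The receptors resemble one another in sequence, and how reads shared between them were assigned is not given in the sources used here, so the split among them is uncertain.

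On the length-scaled deposited FPKM values, TNFRSF10B took 65.3, 65.3 and 66.9% of the summed FPKM of the 4 TRAIL receptor genes in DMSO and 58.7, 58.8 and 58.9% in oridonin. TNFRSF10D took 25.3, 24.1 and 23.0% in DMSO and 29.5, 29.6 and 29.8% in oridonin. TNFRSF10A took 7.30, 8.51 and 8.08% in DMSO and 9.95, 9.84 and 9.31% in oridonin. In every oridonin library the share of TNFRSF10B was thus below, and the shares of TNFRSF10D and TNFRSF10A above, the values of all DMSO libraries. The ratio of the decoy TNFRSF10D to the sum of TNFRSF10A and TNFRSF10B was 0.348, 0.326 and 0.307 in DMSO and 0.430, 0.431 and 0.438 in oridonin. On the log2 scale the ratio differed by 0.41 (oridonin minus DMSO, -1.61 ± 0.09 and -1.21 ± 0.01, SD, n = 3 per group, exact two-sided permutation p = 0.1). With 3 against 3 libraries 0.1 is the smallest p that this test can give, and after adjustment over the 6 ratios computed it was 0.12 (exact permutation test). The ratio of TNFRSF10D to TNFRSF10B differed by 0.46 and that of TNFRSF10A to TNFRSF10B by 0.45 on the log2 scale, with no overlap of the groups and the same exact permutation p of 0.1 for each. Both of these ratios were added after the data were seen.

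**Figure D2:**
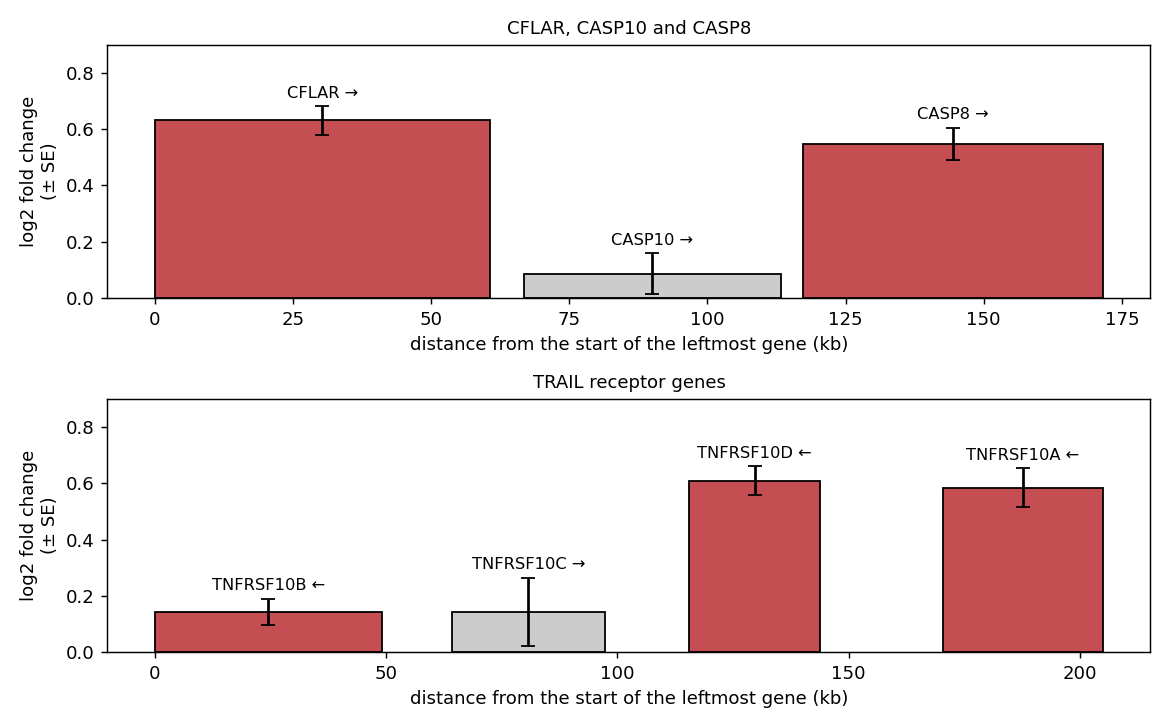
Each bar is a gene drawn to scale along its chromosome, with distance in kb on the x axis and log2 fold change ± SE (n = 3 per group) on the y axis. Red bars passed the test, grey bars did not, and arrows give the strand. CASP10 at 0.09 lies between CFLAR at 0.63 and CASP8 at 0.55, and TNFRSF10B and TNFRSF10C at 0.14 lie beside TNFRSF10D at 0.61 and TNFRSF10A at 0.59.

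FADD (ENSG00000168040, hg38 chr11:70203163-70207390, plus strand) is the adaptor between the receptors and caspase 8. It stood at 12.3, 13.8 and 14.4 CPM in DMSO and at 16.1, 16.8 and 18.3 CPM in oridonin. Both groups were spread, and the lowest oridonin library was above the highest DMSO library. The log2 fold change was 0.34 ± 0.08 (SE over 3 and 3 libraries, edgeR adjusted p = 0.00395).

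RIPK1 (ENSG00000137275, hg38 chr6:3063991-3115187, plus strand) is a kinase that passes signals of TNF receptor 1 and of death receptors to survival, apoptosis or necroptosis. Its level was 21.6, 23.0 and 23.0 CPM in DMSO and 27.5, 27.8 and 25.2 CPM in oridonin. Oridonin replicate 3 was the lowest of its group and still above every DMSO library. The log2 fold change was 0.25 ± 0.07 (SE over 3 and 3 libraries, edgeR adjusted p = 0.00657). RIPK1 shares 238 bases of exon with AL031963.3 on the opposite strand, whose counts were at most 3.79% of the RIPK1 counts in a library.

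CASP8 (ENSG00000064012, hg38 chr2:201233443-201287711, plus strand) encodes the initiator caspase itself. It stood at 41.7, 41.7 and 38.4 CPM in DMSO and at 58.6, 60.0 and 59.4 CPM in oridonin. The oridonin libraries lay closer together than the DMSO libraries, and the means were 40.6 ± 1.92 and 59.4 ± 0.687 CPM (SD, n = 3). CASP8 had a log2 fold change of 0.55 ± 0.06 (SE over 3 and 3 libraries, edgeR adjusted p = 7.57e-07), a 1.46-fold rise.

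CFLAR (ENSG00000003402, hg38 chr2:201116104-201176687, plus strand) encodes c-FLIP, whose long form pairs with caspase 8 and whose short forms block it. The table counts all forms together. Its level was 56.9, 54.7 and 55.0 CPM in DMSO and 86.9, 83.6 and 87.3 CPM in oridonin. The gap between the groups was many times the SD within either, with means of 55.5 ± 1.17 and 85.9 ± 2.02 CPM (SD, n = 3). The log2 fold change was 0.63 ± 0.05 (SE over 3 and 3 libraries), a 1.55-fold rise with the smallest adjusted p of the 9 genes (edgeR adjusted p = 4.78e-08). An antisense gene, CFLAR-AS1, overlaps it and had 4 to 21 counts per library, at most 0.758% of the CFLAR counts.

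CFLAR, CASP10 and CASP8 form a row of related genes on chromosome 2, all on the plus strand. CASP10, which encodes the other initiator caspase that FADD can recruit, lies between the 2 genes that rose. CASP10 averaged 22.3 ± 1.498 CPM for DMSO and 23.7 ± 1.11 for oridonin (SD, n = 3) and did not pass the test (log2 fold change 0.09 ± 0.07, SE, edgeR adjusted p = 0.353). The log2 ratio of CFLAR to CASP10, from FPKM, was -0.11, -0.31 and -0.33 in DMSO and 0.35, 0.17 and 0.34 in oridonin, and that of CASP8 to CASP10 was 1.08, 0.94 and 0.79 in DMSO and 1.42, 1.33 and 1.42 in oridonin. Neither ratio overlapped between the groups, and the differences were 0.54 and 0.45 (n = 3 per group, exact permutation p = 0.1 for each, the smallest possible). Both ratios were added after the data were seen and restate the fold changes of the genes in them.

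The ratio of CFLAR to CASP8, which weighs the inhibitor against the enzyme, did not separate the groups. From FPKM it was 0.438, 0.420 and 0.460 in DMSO and 0.476, 0.448 and 0.473 in oridonin. Oridonin replicate 2 lay within the DMSO range, and the log2 difference was 0.08 (n = 3 per group, exact two-sided permutation p = 0.2). With 1 added to each FPKM value the sign turned, at -0.0035 (exact permutation p = 1). CFLAR and CASP8 thus rose by sizes that these libraries do not tell apart. The absolute ratio depends on the gene length used: the deposited lengths are 22529 bases for CFLAR and 7243 for CASP8, while their longest coding transcripts in GENCODE 29 have 14672 and 2930 bases. With those, the mean ratio (from the mean log2 ratio) was 0.273 in DMSO and 0.289 in oridonin, against 0.439 and 0.465 with the deposited lengths. From CPM, which is not scaled by length, the mean ratio was 1.37 in DMSO and 1.45 in oridonin. The median coding transcript has 1214 bases for CFLAR and 1275 for CASP8, far below the other lengths. Which of the 2 genes has the higher level is thus not settled.

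XIAP (ENSG00000101966, hg38 chrX:123859724-123913979, plus strand) stood at 70.0, 65.3 and 64.4 CPM in DMSO and at 77.4, 74.4 and 75.7 CPM in oridonin. DMSO replicate 1 came closest to the oridonin libraries. The log2 fold change was 0.19 ± 0.05 (SE over 3 and 3 libraries, edgeR adjusted p = 0.00849), a 1.14-fold rise.

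Length-scaled levels placed the 9 genes in an order. In DMSO, TNFRSF10B was highest at 56.4 ± 2.54 FPKM and TNFRSF10D followed at 20.6 ± 0.681 (SD, n = 3). XIAP, FADD and TNFRSF10A came next at 7.31, 7.26 and 6.82 FPKM with overlapping libraries, then CASP8 and RIPK1 at 5.57 and 5.28 FPKM, which also overlapped, then FAS at 3.65 and CFLAR at 2.45 FPKM. In oridonin TNFRSF10A, at 10.4 ± 0.110 FPKM, stood above FADD at 9.31 ± 0.689 and XIAP at 8.44 ± 0.147 in every library, and CASP8 at 8.23 ± 0.150 FPKM (SD, n = 3) overlapped XIAP. FAS at 5.80 overlapped RIPK1 at 6.38 FPKM. With the longest coding transcript as length, CASP8 moved from the 6th to the 3rd place in DMSO, at 13.8 FPKM, while CFLAR remained the 9th, at 3.75 FPKM. The place of CFLAR rests on these long lengths, since its median coding transcript has 1214 bases. The order with median lengths was not computed.

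Sequence upstream of the RefSeq starts was read for 6 of the members (FAS, FADD, RIPK1, CASP8, CFLAR and XIAP), to show what the 3 of them with the larger changes (FAS, CASP8 and CFLAR) carry there. TNFRSF10A, TNFRSF10B and TNFRSF10D were left out of this search by choice. Windows of 250 bases before each start (GRCh38.p14, 17 windows, some overlapping) were searched on both strands for an NF-kB site, a p53 decamer, AP-1 (TGANTCA) and the antioxidant response element (TGACNNNGC). NF-kB and p53 are known to act on several genes of this pathway, FAS and TNFRSF10B being known p53 targets and CFLAR a known NF-kB target. Whether either factor acted on these genes here was not tested. An NF-kB match stood in 2 of the 17 windows and in 5.20% of 34943 windows over all genes. A p53 decamer stood in 2 windows (5.58% of all), AP-1 in 3 (6.59%) and the antioxidant response element in 4 (10.9%). The matches below are shown in stretches of 30 bases, plus strand, 5′ to 3′, with the match in capitals.
CFLAR, NF-kB, chr2:201118609-201118638, in a CFLAR exon: cgcggggggcGGGGAATTCCgcagacagga
FAS, NF-kB, chr10:88991264-88991293, in exons of FAS and ACTA2: ggtcgctggaGGGGGACCCCggttggagag
FAS, p53 decamer, chr10:88991299-88991328, in exons of FAS and ACTA2: cggaactcctGGACAAGCCCtgacaagcca
CASP8, p53 decamer, chr2:201257904-201257933, in a CASP8 intron: ctttccaataAAGCATGTCCagcgctcggg
The exon and intron calls are those of GENCODE 29 over all its transcripts. The first CASP8 window, chr2:201233213-201233462, 20 bases of which lie in a CASP8 exon, held no match to the 4 motifs and is printed because it is the most upstream start of the caspase gene.
CASP8, first start: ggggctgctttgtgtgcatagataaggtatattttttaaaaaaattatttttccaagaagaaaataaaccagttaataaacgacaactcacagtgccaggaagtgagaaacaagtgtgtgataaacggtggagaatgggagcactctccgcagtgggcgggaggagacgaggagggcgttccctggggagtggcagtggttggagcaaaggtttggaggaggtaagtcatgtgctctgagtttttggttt
A match is a run of letters and was not tested for binding.

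The other genes of the pathway gave calls in both directions. Of 40 listed by role, 33 were tested, 4 were called higher and 4 lower, against a background of 20.6% and 21.3% of all tested genes, and their median log2 fold change was 0.03, against 0.01 over all tested genes. Among ligands, TNFSF10, which encodes TRAIL, had 17 to 29 counts per library, with a mean of 0.803 ± 0.159 CPM for DMSO and 0.835 ± 0.0918 for oridonin (SD, n = 3), and did not pass the test (log2 fold change 0.07 ± 0.27, SE, edgeR adjusted p = 0.869). FASLG had 1 count in DMSO replicate 2 and 0 in the other libraries, and TNF and LTA had at most 2 counts in any library, under a floor of 3 counts, which covers counting error only. TNFSF15, a ligand of death receptor 3, rose from 1.78, 1.37 and 1.94 CPM to 4.14, 4.80 and 5.21 CPM (log2 fold change 1.48 ± 0.17, SE over 3 and 3 libraries, edgeR adjusted p = 1.96e-06). Death receptor 3 itself, TNFRSF25, stood at 2.59 ± 0.703 and 1.98 ± 0.3502 CPM (SD, n = 3) and was not called.

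Among 4 tested receptors, TNFRSF1A, TNF receptor 1, rose from 105, 109 and 119 CPM to 141, 150 and 149 CPM (log2 fold change 0.41 ± 0.05, SE over 3 and 3 libraries, edgeR adjusted p = 1.39e-05). The other 3 were not called. Of 7 adaptors and complex partners, 1 was higher and 1 lower. TRADD, the adaptor of TNF receptor 1, was called at 0.23 ± 0.09 (SE, edgeR adjusted p = 0.0456) although its libraries overlapped. That call was lost with DESeq2, on the log2 FPKM values, without DMSO replicate 1 (0.22), without DMSO replicate 2 (0.19), without oridonin replicate 1 (0.19) and without oridonin replicate 3 (0.20). CASP8AP2, a large nuclear protein that binds caspase 8 and also acts in histone gene expression, fell from 26.5, 23.5 and 22.7 CPM to 16.9, 16.7 and 14.6 CPM (log2 fold change -0.59 ± 0.08, SE over 3 and 3 libraries, edgeR adjusted p = 1.87e-05).

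A further list of 4 genes held other caspases and BID. CASP6, CASP9 and CASP2 were not called, at log2 fold changes of 0.09 ± 0.08, 0.16 ± 0.08 and -0.05 ± 0.07 (SE). BID, which caspase 8 cuts to reach the mitochondria, rose from 30.4, 30.3 and 32.5 CPM to 38.8, 40.5 and 38.7 CPM (log2 fold change 0.34 ± 0.06, SE over 3 and 3 libraries, edgeR adjusted p = 2.47e-04).

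Of 7 inhibitor of apoptosis genes and their antagonists, 1 was called. BIRC3, which encodes cIAP2, a ubiquitin ligase of RIPK1, fell from 8.93, 9.90 and 8.40 CPM to 5.18, 5.74 and 4.32 CPM (log2 fold change -0.83 ± 0.12, SE over 3 and 3 libraries, edgeR adjusted p = 2.63e-05). Its relative BIRC2 stood at 99.3 ± 1.11 and 101 ± 2.91 CPM (SD, n = 3) and was not called. Of 9 tested genes for the ubiquitin control of RIPK1 and for necroptosis, 2 were lower and none higher, a share lower that is near the background of 21.3%. TNFAIP3, also called A20, a ubiquitin-editing enzyme that restrains NF-kB and RIPK1 signalling, fell from 93.7, 95.7 and 94.4 CPM to 38.7, 40.3 and 36.4 CPM. Its log2 fold change of -1.30 ± 0.06 (SE over 3 and 3 libraries, edgeR adjusted p = 2.75e-11) was the largest fall among the 33. TAB2, a partner of the kinase TAK1, fell by 0.24 on the log2 scale, and was not called with total-count scaling (-0.16, edgeR adjusted p = 0.0619). RIPK3, the kinase that RIPK1 needs for necroptosis, had 1 count in oridonin replicate 3 and 0 in the other libraries, while MLKL, its substrate, stood at 8.58 ± 0.776 and 8.09 ± 0.116 CPM (SD, n = 3) and was not called.

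**Figure D3:**
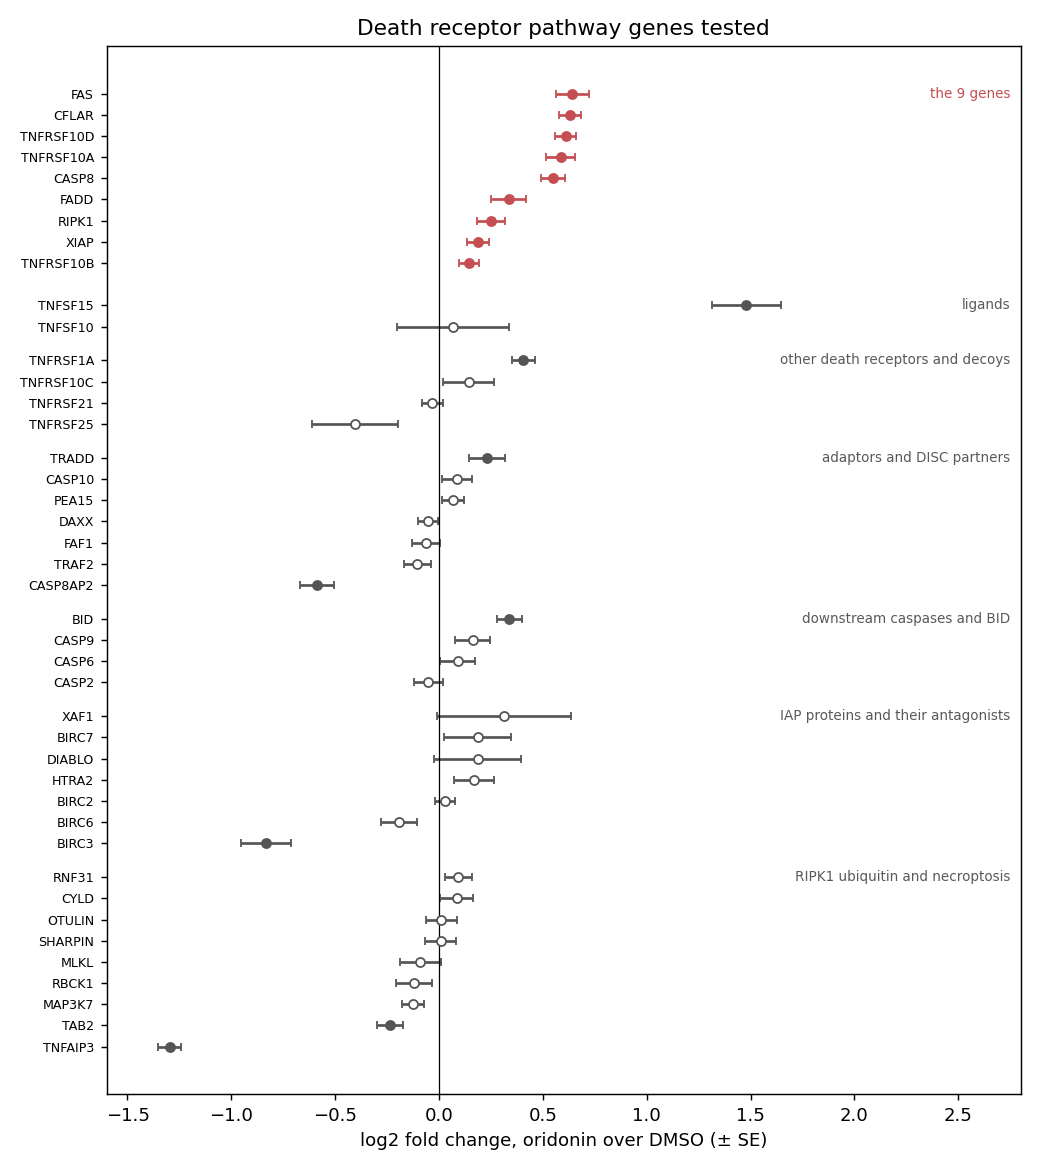
The x axis is the log2 fold change (oridonin over DMSO) with its SE as a bar, n = 3 libraries per group, and each row is a tested gene. Filled points passed the test and open points did not. The 9 genes (red) all lie to the right of 0, while the companion genes (grey) lie on both sides, from -1.30 for TNFAIP3 to 1.48 for TNFSF15.

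For each of the 9 genes, the protein-coding gene with the most similar profile was sought among 9017 candidates with a mean of at least 10 CPM. Likeness was the root mean square difference of log2 CPM, each gene centred on its mean over the 6 libraries. CFLAR and TNFRSF10D were each other's nearest gene, at 0.0298, against a median over candidates of 0.328 for CFLAR. The nearest gene of CASP8 was TIGAR, a p53-induced regulator of glycolysis, at 0.0334. FAS was nearest to RIN2 (0.0474), TNFRSF10A to the TGF-beta receptor gene TGFBR2 (0.0321), FADD to INPPL1 (0.0279) and TNFRSF10B to CD276 (0.0111). RIPK1 was nearest to the autophagy gene ATG14 (0.00708) and XIAP to ZSCAN29 (0.0146). These values describe 6 libraries in 2 groups, so that a similar difference between the groups is enough to give a small value.

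**Figure D4:**
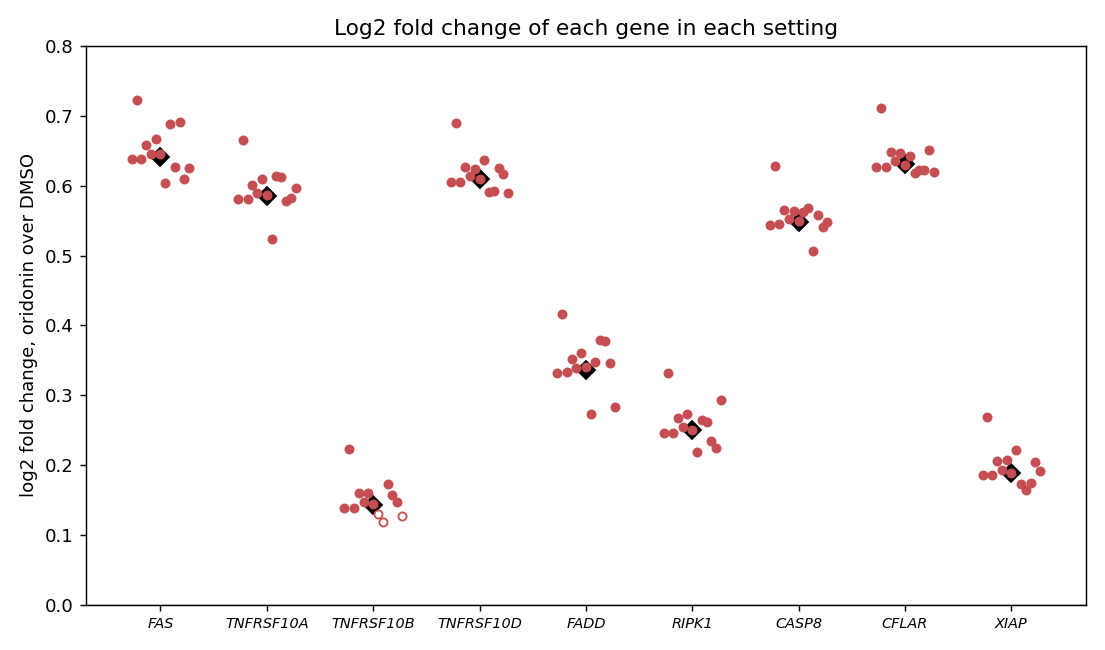
The y axis is the log2 fold change of each gene under the main setting (black diamond) and 13 alternatives (circles), which change scaling, test, filter or input values, add the replicate number to the model or leave out 1 library. Filled symbols passed the test and open circles did not. The only open circles belong to TNFRSF10B, and the lowest value is 0.12.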

How the data were processed

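The authors deposited raw counts per gene (whole numbers, from the values) and log2 FPKM values for genes with a count in every library, per the file headers. The submitters' processing notes name hg38 and DESeq2 1.10.1; no source used here names the aligner, the counter or the use of strand. Library columns were matched by the column names in the labels. Counts were tested with edgeR 4.0.16 (R 4.3.3; filterByExpr, TMM, robust glmQLFit and glmQLFTest, treatment as the only term), with Benjamini-Hochberg adjustment over 15116 genes. SE is the log2 fold change over the square root of F. Ratios came from deposited log2 FPKM, with exact permutation tests; 4 of the 6 ratios were added after the data were seen. Alternatives were DESeq2 1.42.0, limma 3.58.1 on log2 FPKM, other scalings and filters, a replicate block and leaving out each library. On simulated counts the edgeR step recovered 73 of 100 genes changed 1.5-fold and 86 of 100 changed 2-fold, among 15116 genes in 1 simulation, with 20 false calls over both sizes. Named companion genes were, per role, up to 3 called genes in each direction with the smallest p, plus TNFSF10 and FASLG; the other genes given were chosen after their values were seen. The members and lists were chosen with earlier results of these data known. Promoter sequences are RefSeq's (GRCh38.p14), and windows of 6 of the 9 genes were used. TNFRSF10A, TNFRSF10B and TNFRSF10D were left out by rule, as genes on chromosome 8. Some genes of the pathway are not reported here.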

Additional observations from a re-analysis of the deposited data

How the results depend on the processing

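Over 13 alternatives none of the 9 genes changed sign, and 8 kept their call in each; TNFRSF10B lost it without DMSO replicate 1, without DMSO replicate 2 and without oridonin replicate 3. The number of the 9 called was 8 to 9 without each library in turn, and 9 in the other settings. Over all genes, 6332 were called in the main setting and 5282 to 6547 without each library. The same-numbered libraries of the 2 treatments had correlations of deviations of 0.194, 0.0651 and 0.173, each the highest for its library, but as not all were above 0.1 they were not taken as pairs. With the replicate block 7689 genes were called, all 9 members among them, and the number of companion genes called went from 8 to 12. The difference in the CFLAR to CASP8 log2 ratio turned from 0.08 to -0.0035 with FPKM + 1, and ran from 0.05 to 0.12 without each library, while that of the decoy ratio ran from 0.36 to 0.45. TNFSF10, at 0.07 in the main setting, ran from -0.10 (without DMSO replicate 3) to 0.15 (without DMSO replicate 1), and stood at -0.03 without oridonin replicate 2. It had 17 to 29 counts per library. The cause of these changes was not tested.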
